A study of Homo sapiens with 6 samples.

Results

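Beta-catenin (CTNNB1) and 9 genes whose proteins meet it in the nucleus were examined in HCT116 cells with and without silencing of the long non-coding RNA AC010789.1. The other 9 were the DNA-binding factors TCF7, TCF7L1, TCF7L2 and LEF1, the coactivators BCL9, BCL9L and PYGO2, the inhibitor CTNNBIP1 and the corepressor TLE3. Members were taken by symbol: every listed transcript that GENCODE v29 assigns to 1 of these 10 genes was kept, 86 of 98782 matched transcripts, and counts were summed to 10 of 18750 genes. The annotation holds 176 transcripts of these genes, and 56 of the 86 that were listed are annotated as protein_coding.

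HCT116 is an established human colorectal cancer cell line. Cells of the control group (siRNA-NC, 3 libraries) received a negative control siRNA, and cells of the other group (si-AC010789.1, 3 libraries) received 1 siRNA against AC010789.1. Both groups shared the line, the culture medium and the transfection reagent, and sequencing came from total RNA of whole cultures. Since these are bulk samples, fewer cells that express a gene and less RNA per cell cannot be told apart. The labels do not say whether the replicates were separate cultures, while the study's text speaks of biological repeats. The study reports substantial differences within the group and proposes that they may come from cell generations that differed between repeats. The p-values measure only the spread between these samples. The level of AC010789.1 itself was not analysed here, and neither was that of miR-432-3p, the microRNA that the study followed as its partner.

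Library totals ran from 11277222 to 13443866 counts, so that 3 counts equalled 0.225 to 0.266 CPM (each count divided by its library's total, scaled with the trimmed mean of M-values, and brought to a fixed total). Of 13 colorectal epithelial markers, 8 had a row in the table. The keratin KRT8 had 5558 to 11278 counts per library and KRT18 had 4395 to 6129, whereas CDH1 (E-cadherin) had 8 to 13, EPCAM 35 to 68 and LGALS4 0 to 3. Of the 6 markers tested, 2 were higher and 4 lower in si-AC010789.1. EPCAM had 35, 49 and 54 counts in siRNA-NC replicates 1, 2 and 3 against 64, 68 and 48 in those of si-AC010789.1 (log2 fold change 0.45, adjusted p = 0.326 by edgeR's quasi-likelihood test). CDH1, too low to test, had 8, 9 and 9 against 10, 10 and 13, higher in every treated library. CLDN7 had 217 to 331 counts. CLDN4 had 290, 298 and 326 counts in siRNA-NC replicates 1, 2 and 3 against 331, 4 and 22 in those of si-AC010789.1. ELF3 had 1030, 1019 and 1184 against 787, 744 and 825, lower in every treated library (log2 fold change −0.40, adjusted p = 0.110 by edgeR's quasi-likelihood test and 0.0208 by DESeq2). No row was analysed here for KRT19, KRT20, CDX2, VIL1 or ESRP1. The mesenchymal filament VIM had 7543 to 12190 counts. The summed level of the epithelial list was 1122 to 1351 CPM in siRNA-NC and 888 to 1159 CPM in si-AC010789.1, and that of 13 mesenchymal and other markers was 934 to 1089 and 838 to 1014 CPM. The part of these marker levels in the results was not tested, and the identity of the line was not tested either.

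In the canonical Wnt pathway, a destruction complex holds β-catenin low until a Wnt signal, or a lesion of the pathway in colorectal cancer, lets it accumulate and enter the nucleus. There it binds TCF/LEF factors, which sit on DNA with Groucho/TLE corepressors when β-catenin is absent. BCL9 proteins bind β-catenin and recruit Pygopus, and CTNNBIP1 (ICAT) blocks the binding of β-catenin to TCF factors.

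The sequences that mark the transcripts and sites discussed here are shown first. Splice junctions are given as 30 bases of the GENCODE v29 transcripts (GRCh38), 5′ to 3′, with the 15 bases after the junction in capitals. LEF1-205, a processed_transcript, starts in an exon of its own and joins the exon that coding LEF1-201 reaches from an upstream coding exon. The junction of LEF1-205 runs from chr4:108071658 to chr4:108070770 and that of LEF1-201 from chr4:108078220 to the same base, on the minus strand.
LEF1-205: ctgctggggactgggTGGCATGCCCTCTCC
LEF1-201: attcttggcagaaggTGGCATGCCCTCTCC

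Coding TCF7-204 splices onto an exon at chr5:134142185 (plus strand) from chr5:134139038, and retained_intron transcript TCF7-214 reads into that exon from the intron before it.
TCF7-204: ccacactgtgagctgGTTCACCCACCCATC
TCF7-214: tcttcctgcctccagGTTCACCCACCCATC

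Coding transcripts of TCF7L2 leave a shared coding exon that ends at chr10:113158069 (plus strand) for different next exons, at chr10:113160619 in TCF7L2-223, chr10:113158667 in TCF7L2-210 and chr10:113159920 in TCF7L2-217. All 3 junctions lie in coding sequence.
TCF7L2-223: cgggagagaccaatgATGCAAATACTCCAA
TCF7L2-210: cgggagagaccaatgAACACAGCGAATGTT
TCF7L2-217: cgggagagaccaatgACCTGAGCGCTCCTA

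Mature hsa-miR-432-3p (RefSeq, GRCh38.p14) is shown with its seed, bases 2 to 8, in capitals. Its 7-base matches were searched as CCATCCA (bases 2 to 8) and CATCCAA (bases 2 to 7 followed by A) on the transcript strand of annotated 3′ UTRs, and both can overlap where CCATCCA is followed by A.
hsa-miR-432-3p: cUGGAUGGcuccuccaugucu
The 3′ UTRs of 3 of the 10 genes held a match: LEF1, BCL9L and TLE3. Among 12317 tested genes with an annotated 3′ UTR, 2365 (19.2%) held one. The 30-base windows below have the match in capitals and come from chr4:108048385-108048414, chr11:118896324-118896353 and chr15:70047946-70047975, all on the minus strand.
LEF1: cagagcatcttgCATCCAAacctgtaacct
BCL9L: ctactcttccctCCATCCAtggccacaccc
TLE3: ctgtgtcgcctcCCATCCAagcgccaggga
A match is a description of these letters and not a binding site. The LEF1 match lies in LEF1-201 and LEF1-202, the BCL9L match in BCL9L-201, and the TLE3 match in TLE3-214 and TLE3-226. The 3′ UTRs of CTNNB1, TCF7, TCF7L1, TCF7L2, BCL9, PYGO2 and CTNNBIP1 held neither 7-base match, nor the 6 letters CATCCA, which occur in 35.4% of the tested genes. The median log2 fold change (si-AC010789.1 over siRNA-NC) was −0.01 over the 2365 genes with a match and 0.00 over the other 9952.

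At the level of gene sums, no member passed the adjusted threshold, and the fitted changes ran from −0.79 (TCF7) to 0.12 (BCL9) on the log2 scale. Of the 9 genes with enough counts to test, 4 were higher and 5 lower in si-AC010789.1. The median of their log2 fold changes was −0.05, beside 0.00 over all 13750 genes tested. By edgeR's quasi-likelihood test, adjusted by the Benjamini-Hochberg method over all genes, 0 of the 9 passed an adjusted p of 0.05 (lowest 0.283, highest 0.914). Of all genes tested 0.982% passed, 0.284% higher and 0.698% lower in si-AC010789.1. DESeq2 gave no adjusted p to TCF7, LEF1 and CTNNBIP1. It called 0 of the other members tested, against 5.42% of the 9746 genes to which it gave an adjusted p. The study's criteria, an unadjusted p under 0.05 with an absolute log2 change over 1, were met by 0 of the 9 and by 0.778% of all genes. At an unadjusted p under 0.05 there were 3 (TLE3, TCF7 and LEF1), where 17.2% of all genes lay. Groups did not overlap for 2 genes, LEF1 and TLE3, both lower in si-AC010789.1, where 25.1% of all genes tested did not overlap. With 3 libraries against 3, the exact two-sided permutation test of a single value cannot go below 0.1.

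**Figure D1:**
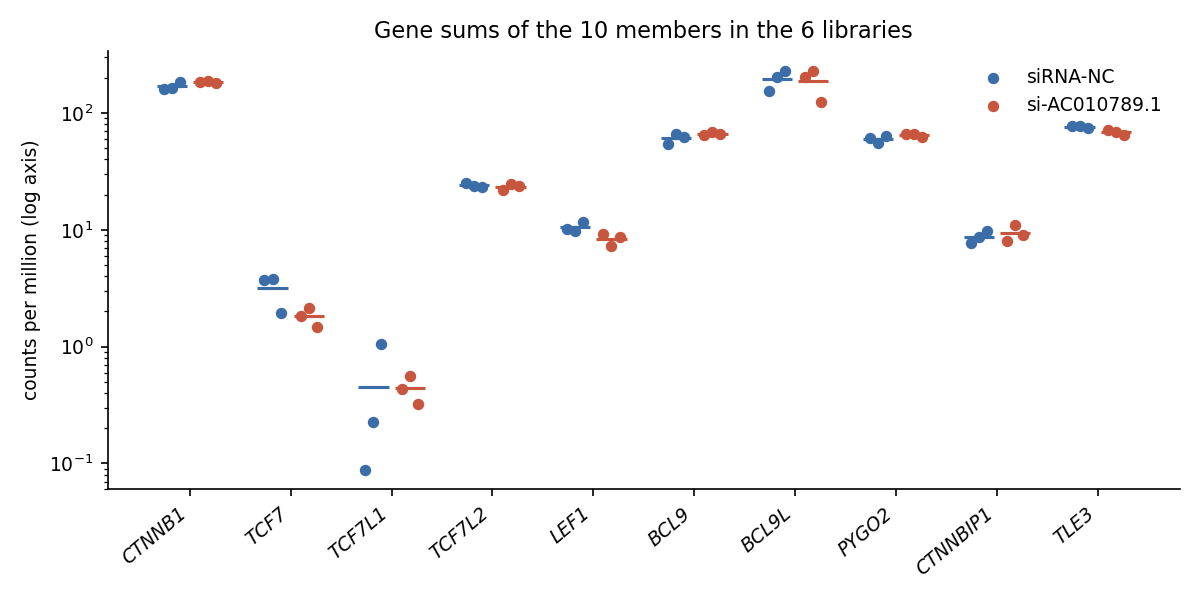
Gene sums of the 10 members in CPM (log axis), with 1 point per library and a bar at each group mean (blue siRNA-NC, red si-AC010789.1, n = 3 each). The means span from 0.440 CPM for TCF7L1 to 196 CPM for BCL9L, and groups are apart for LEF1 and TLE3 only.

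**Figure D2:**
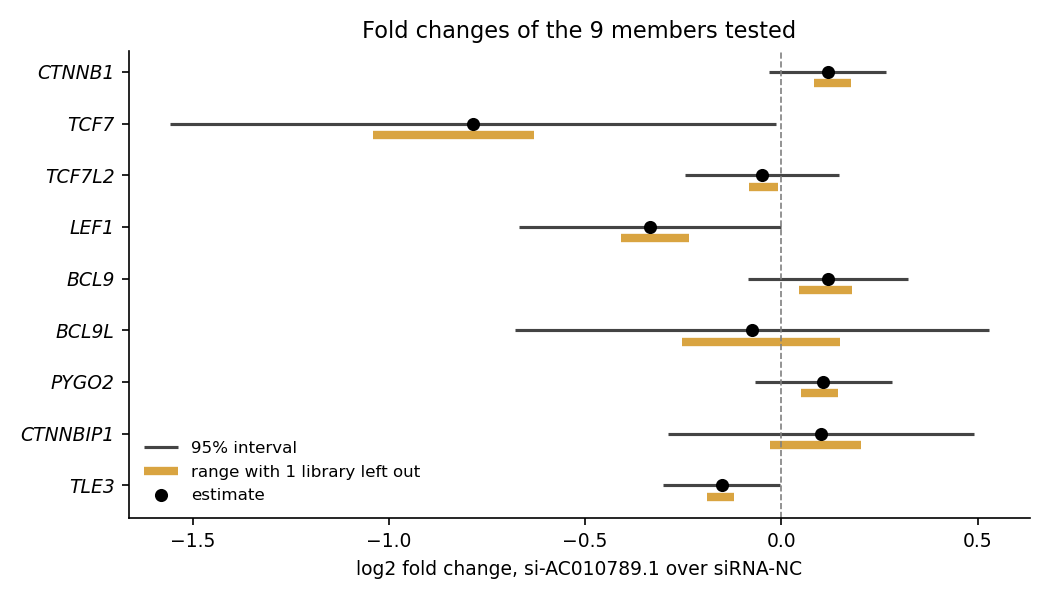
Log2 fold change of si-AC010789.1 over siRNA-NC for the 9 members tested, with the 95% interval as a thin line and the range over fits that each leave out 1 library as a thick bar. TCF7 lies lowest at −0.79, and the thick bars of BCL9L and CTNNBIP1 cross 0.

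CTNNB1 (ENSG00000168036.17, chr3:41194741-41260096, plus strand) encodes β-catenin, the protein that joins cadherin junctions and Wnt transcription. Its gene sum was 161, 164 and 183 CPM in siRNA-NC replicates 1, 2 and 3 and 184, 188 and 179 CPM in si-AC010789.1 replicates 1, 2 and 3, the order used throughout. The third control library reached the treated values, so the groups overlapped. The means were 169 ± 12.2 and 184 ± 4.61 CPM (SD over 3 libraries). A log2 fold change of 0.12 (SE 0.06, adjusted p = 0.389 by edgeR's quasi-likelihood test) was fitted, and its 95% interval ran from 0.979-fold to 1.20-fold. A fall of β-catenin RNA below 0.979-fold therefore lay outside this interval.

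The study's primer pair for β-catenin was matched to the annotation to see which transcripts it reads.
β-catenin forward: ggcttggaatgagactgctg
β-catenin reverse: ggtccatacccaaggcatcc
Both primers were found in 44 annotated transcripts, all of CTNNB1, and in 8 of its 12 listed ones. In CTNNB1-203 the product is 134 bp and spans exons 13 to 15 of 16, at chr3:41236697-41239193 on the genome. The 8 listed transcripts held between 92.6% and 97.0% of the CTNNB1 counts of a library.

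Below the stable sum, the counts of CTNNB1 were divided among its transcripts very unevenly from library to library. CTNNB1-203 (ENST00000396185) had 166, 409 and 936 counts in siRNA-NC against 1223, 1644 and 1131 in si-AC010789.1. Every treated library was above every control library, and the controls differed among themselves by 4.85 times, where the gene sum differed by 1.14 times. CTNNB1-203 held 22.1 ± 14.9% of the gene's counts in siRNA-NC against 59.7 ± 9.43% in si-AC010789.1 (SD, n = 3 each; exact two-sided permutation p = 0.1). The single transcript had a log2 fold change of 1.49 (SE 0.58), with an adjusted p of 0.863 by edgeR's quasi-likelihood test.

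The other 2 main transcripts moved without a clean split. CTNNB1-201 had 1120, 274 and 750 counts in siRNA-NC against 287, 337 and 580 in si-AC010789.1. CTNNB1-202 had 386, 1320 and 563 and then 472, 171 and 302. The groups overlapped for both. CTNNB1-201 led in siRNA-NC replicate 1 and CTNNB1-202 in replicate 2, while CTNNB1-203 led in the third control and in every treated library. The 3 together held 91.2% to 94.2% of the CTNNB1 counts in each library.

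These 3 transcripts carry the same coding sequence of 2343 bases (chr3:41224069-41239339) and differ outside it. After the last coding base, CTNNB1-201 continues without an intron for 1114 bases, the stop codon included. An intron of 305 bases (chr3:41239355-41239659) is removed there in CTNNB1-203, and 1 of 464 bases (chr3:41239355-41239818) in CTNNB1-202. The first exon starts at chr3:41199229 in CTNNB1-201, at 41199389 in CTNNB1-203 and at 41199434 in CTNNB1-202. How reads that the 3 share were divided between them is not given in the sources used here. The coding transcript CTNNB1-206, from which the same 305-base intron is removed, had 21, 17 and 21 counts and then 14, 16 and 11, lower in every treated library.

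**Figure D3:**
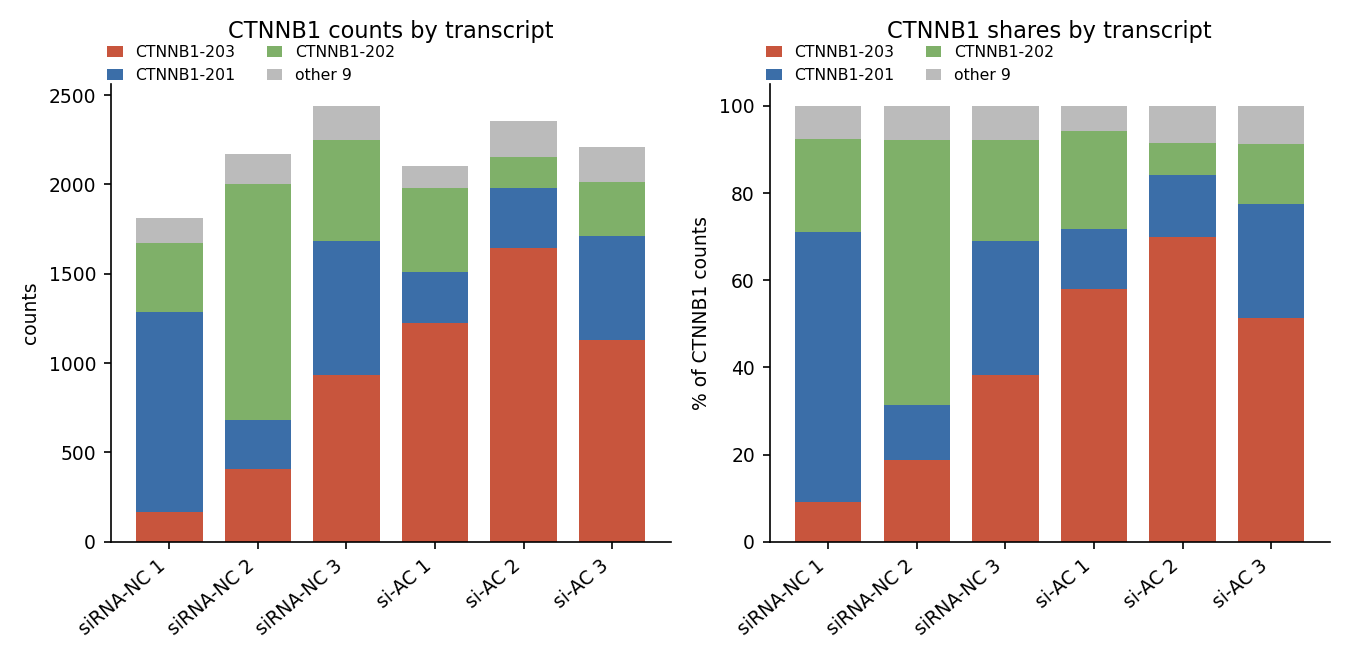
CTNNB1 counts (left) and percent of the gene's counts (right) by transcript in each library, with si-AC standing for si-AC010789.1. The bars on the left have similar heights while the red CTNNB1-203 segment is 9.17% to 38.4% in siRNA-NC and 51.2% to 69.9% in si-AC010789.1.

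**Figure D4:**
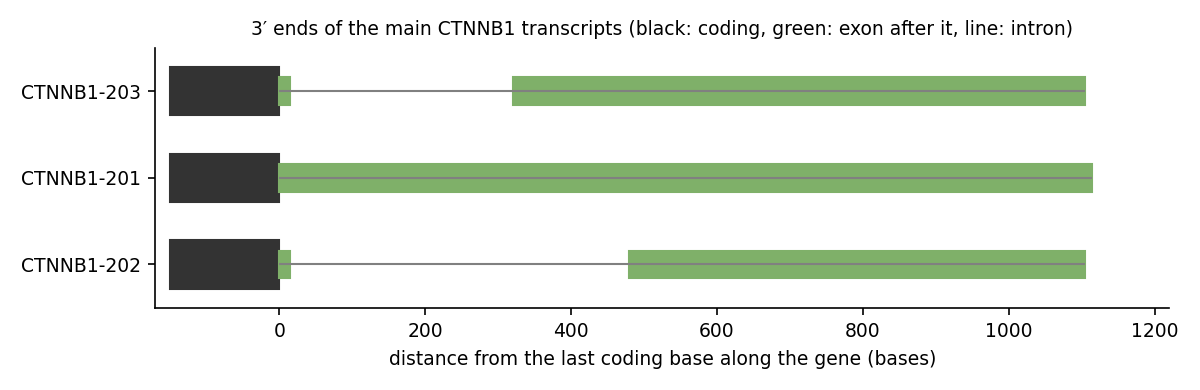
Map of the 3 main CTNNB1 transcripts by distance in bases from the last coding base, to scale, with the last 150 coding bases in black, later exon sequence in green and introns as lines. Coding sequence is shared, and the ends differ by an intron of 305 bases, none, or 464 bases.

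Among the TCF/LEF factors, TCF7L2 (ENSG00000148737.16, chr10:112950250-113167678, plus strand), whose product TCF-4 is the main TCF of intestinal epithelium, had the highest level. It gave 25.3, 23.8 and 23.4 CPM in siRNA-NC against 21.9, 24.4 and 23.6 CPM in si-AC010789.1. The ranges overlapped, and the log2 fold change was −0.05 (SE 0.08, adjusted p = 0.806 by edgeR's quasi-likelihood test), within a 95% interval of 0.843-fold to 1.11-fold. Of its 18 listed transcripts, 16 are coding. TCF7L2-223 had 80, 70 and 155 counts in siRNA-NC against 91, 92 and 122 in si-AC010789.1. TCF7L2-210 had 123, 40 and 17 and then 15, 36 and 11 counts, and TCF7L2-217 had 10, 131 and 0 and then 44, 10 and 16. Each of these 3 transcripts had overlapping groups, and TCF7L2-210 and TCF7L2-217 each had their highest count in 1 control library.

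Coding transcripts of TCF7L2 that start at the most upstream annotated coding start held 93.7%, 90.5% and 91.0% of the gene's counts in siRNA-NC against 87.3%, 87.3% and 89.0% in si-AC010789.1. Those with a later coding start held 4.20%, 7.62% and 7.69% and then 10.8%, 10.5% and 8.22%. The groups were apart in both shares (exact two-sided permutation p = 0.1 each), as they were in 9.95% and 9.23% of 6143 genes that list both classes. The later-start class comprised 12, 24 and 24 counts against 27, 32 and 24. It includes short annotated models such as TCF7L2-202 and TCF7L2-201, whose 667 and 620 bases are all coding. Whether translation starts there was not tested. Transcripts outside protein_coding held only 1.28% to 2.74%, so these shares largely mirror each other and are not separate results.

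LEF1 (ENSG00000138795.9, chr4:108047545-108168956, minus strand), a factor that is scarce in normal colon and is itself a Wnt target, was lower in every treated library. Its sums were 10.2, 9.80 and 11.6 CPM in siRNA-NC against 9.17, 7.19 and 8.66 CPM in si-AC010789.1. The log2 fold change was −0.34 (SE 0.14), or 0.793-fold, with an adjusted p of 0.290 by edgeR's quasi-likelihood test and an unadjusted p of 0.0496.

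A large part of this separation lay in 1 transcript. LEF1-205 (ENST00000504426), which has no annotated coding sequence, had 19, 20 and 16 counts in siRNA-NC against 0, 1 and 0 counts in si-AC010789.1. Its summed CPM ratio of siRNA-NC to si-AC010789.1 was 53.2, with a 95% counting interval of 9.16 to 2139 that covers counting error only. The adjusted p was 0.244 by edgeR's quasi-likelihood test over 44319 transcripts and 0.00234 by DESeq2, the 1 member transcript that either tool called. Over all transcripts DESeq2 called 675, where edgeR's quasi-likelihood test called 6. Without LEF1-205 the gene gave 8.51, 8.30 and 10.4 CPM in siRNA-NC against 9.17, 7.11 and 8.66 CPM in si-AC010789.1. Those values overlapped (9.05 ± 1.13 and 8.32 ± 1.07 CPM, SD, n = 3 each; exact two-sided permutation p = 0.6). LEF1-205 was left out after its values were seen, so this p-value describes the remainder and does not test it.

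The coding transcripts of LEF1 did not separate. The 6 together gave 80, 98 and 128 counts in siRNA-NC against 93, 79 and 96 counts in si-AC010789.1, with a log2 fold change of −0.11 and an adjusted p of 0.834 when edgeR's quasi-likelihood test was run on sums of protein_coding transcripts alone. LEF1-202 had 34, 50 and 90 counts and then 30, 26 and 39. LEF1-201 had 32, 32 and 25 and then 41, 28 and 43. The share of counts outside protein_coding transcripts was 24.0 ± 6.80% in siRNA-NC against 11.3 ± 0.976% in si-AC010789.1, with no overlap (exact two-sided permutation p = 0.1). Of 9804 genes that list transcripts of both kinds, 10.8% had no overlap in this share. Among the members it was also without overlap in TCF7 (33.6 ± 10.1% and 75.5 ± 27.4%) and TLE3 (5.38 ± 0.588% and 6.39 ± 0.416%), both higher in si-AC010789.1.

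TCF7 (ENSG00000081059.19, chr5:134114711-134151865, plus strand), which encodes the T-cell factor TCF-1, was the second lowest member. It had 42, 50 and 26 counts in siRNA-NC against 21, 27 and 18 in si-AC010789.1, or 3.72, 3.77 and 1.95 against 1.83, 2.16 and 1.46 CPM. The third control library lay among the treated ones. The log2 fold change of −0.79 (SE 0.32) had an adjusted p of 0.285 by edgeR's quasi-likelihood test and an unadjusted p of 0.0470, and its size exceeded that of 97.4% of the genes tested.

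Within TCF7 the coding transcripts were the lower ones. TCF7-204 (ENST00000395029) had 25, 39 and 12 counts in siRNA-NC against 3, 1 and 10 in si-AC010789.1, with no overlap. Both coding transcripts together gave 2.22, 2.94 and 1.20 CPM and then 0.262, 0.0799 and 0.810 CPM (exact two-sided permutation p = 0.1). On sums of protein_coding transcripts, edgeR's quasi-likelihood test gave a log2 fold change of −2.42 with an adjusted p of 0.224. The 4 retained_intron transcripts gave 17, 11 and 10 counts and then 18, 26 and 8, which overlapped (exact two-sided permutation p = 0.6). TCF7-214 accounted for 9, 6 and 4 and then 11, 19 and 4 of them. Exons of TCF7 overlap those of SKP1 on the opposite strand, which had 10735 counts in all, and without strand information reads there cannot be told apart. The primer pair that the study lists for TCF1 matched 0 of the 24 annotated TCF7 transcripts, with neither primer found in any of them.

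**Figure D5:**
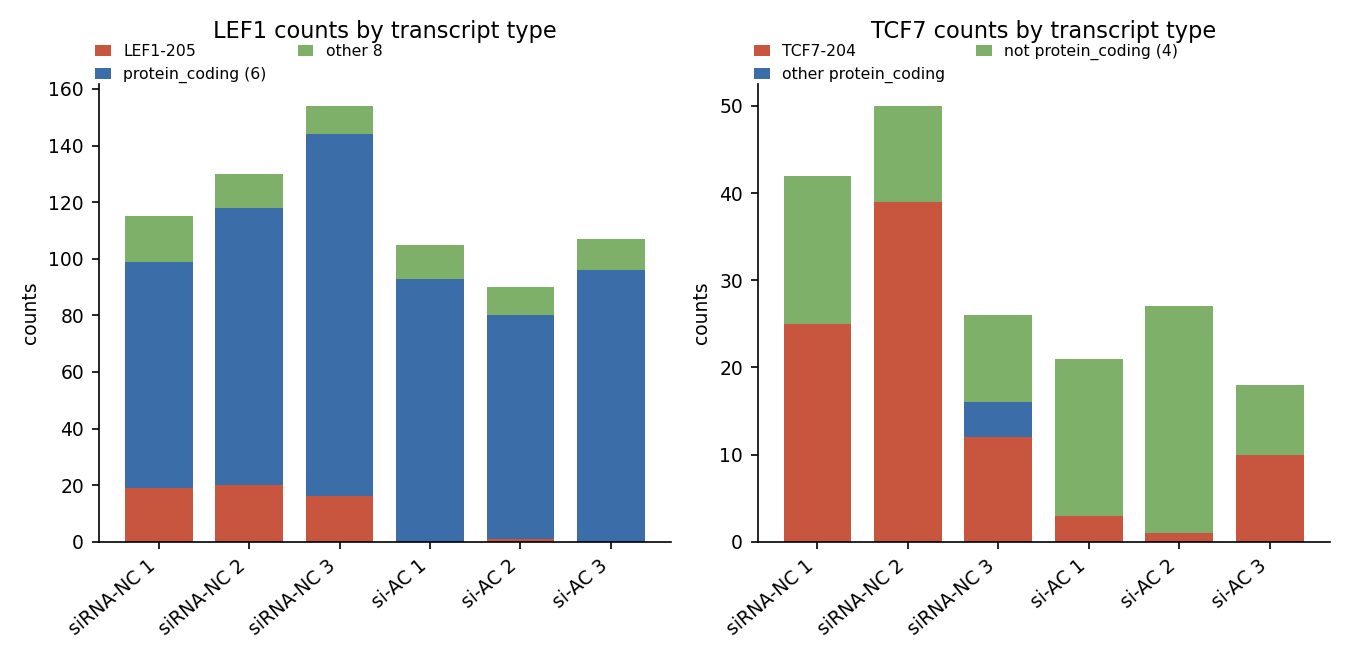
Counts of LEF1 (left) and TCF7 (right) by transcript type in each library, with si-AC standing for si-AC010789.1. LEF1-205 has 16 to 20 counts in each siRNA-NC library and 0 or 1 in each si-AC010789.1 library, and TCF7-204 has 12 to 39 and 1 to 10.

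TCF7L1 (ENSG00000152284.4, chr2:85133410-85310388, plus strand), whose product TCF-3 acts mostly as a repressor, was too low to test. It had 1, 3 and 14 counts in siRNA-NC against 5, 7 and 4 in si-AC010789.1, all in its 1 listed transcript. The highest and the lowest value were both control libraries.

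Compared per length, in TPM (read share per base of transcript) with each transcript's own length, TCF7L2 made up 60.2 ± 3.41% of the 4 TCF/LEF genes in siRNA-NC against 67.8 ± 3.90% in si-AC010789.1 (SD, n = 3 each; exact two-sided permutation p = 0.2). LEF1 made up 30.2 ± 2.76% and 24.3 ± 2.91% (p = 0.2, same exact test). TCF7 held 8.78 ± 1.67% and 7.03 ± 2.20%, and TCF7L1 0.863 ± 0.946% and 0.870 ± 0.219%. The 4 summed to 33.3 ± 2.19 and 32.9 ± 1.09 TPM, so that the total of TCF/LEF RNA differed by less than the spread between replicates. The mean of TCF7L2 was 20.1 TPM in siRNA-NC and 22.3 TPM in si-AC010789.1, whereas its mean CPM was 24.2 and 23.3, the opposite direction. Levels and shares per length depend on how reads were divided among transcripts of unlike length, which is not given.

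Among the coactivators, BCL9 and PYGO2 varied least. BCL9 (ENSG00000116128.10, chr1:147541412-147626216, plus strand), the adaptor that binds β-catenin, gave 54.5, 66.3 and 62.3 CPM in siRNA-NC against 64.6, 68.2 and 66.1 CPM in si-AC010789.1. The groups overlapped, with a log2 fold change of 0.12 (SE 0.08, adjusted p = 0.527 by edgeR's quasi-likelihood test). BCL9-201 held 96.8 ± 0.428% and 96.8 ± 0.226% of its counts, and BCL9-203, a processed_transcript, had 8 to 20 counts per library.

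PYGO2 (ENSG00000163348.3, chr1:154957026-154963853, minus strand), a Pygopus protein whose PHD finger reads methylated histone H3, gave 61.5, 55.0 and 63.0 CPM in siRNA-NC against 65.4, 65.8 and 62.3 CPM in si-AC010789.1. Only the third treated library lay inside the control range, and the log2 fold change was 0.11 (SE 0.07, adjusted p = 0.505 by edgeR's quasi-likelihood test). PYGO2-202 held at least 97.7% of the counts in every library, and PYGO2-201 had 0 to 13 counts. PYGO2 exons overlap those of SHC1 on the same strand, which had 8663 counts in all, so the division of reads there is uncertain.

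BCL9L (ENSG00000186174.12, chr11:118893875-118925608, minus strand), the paralogue of BCL9, was the most variable of the abundant members. It gave 153, 205 and 230 CPM in siRNA-NC against 205, 230 and 123 CPM in si-AC010789.1. The lowest value was si-AC010789.1 replicate 3, and the other treated libraries lay near the higher controls. The log2 fold change of −0.07 (SE 0.25, adjusted p = 0.914 by edgeR's quasi-likelihood test) became 0.15 without that library. Its 95% interval, 0.625-fold to 1.44-fold, leaves changes of that size undetectable here. BCL9L-201 had 1510, 2347 and 2753 counts and then 2001, 2532 and 1287. BCL9L-202, which starts at a later coding start, had 146, 271 and 237 and then 276, 274 and 152, so both transcripts were lowest in the same libraries within each group.

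CTNNBIP1 (ENSG00000178585.14, chr1:9848276-9910336, minus strand), the small β-catenin inhibitor ICAT, gave 7.71, 8.67 and 9.68 CPM in siRNA-NC against 7.95, 10.9 and 9.07 CPM in si-AC010789.1. The groups overlapped, and the log2 fold change was 0.10 (SE 0.16, adjusted p = 0.801 by edgeR's quasi-likelihood test) and −0.028 without si-AC010789.1 replicate 2. CTNNBIP1-203 held 90.7 ± 5.10% and 92.5 ± 4.30% of the counts, and CTNNBIP1-204 had 3 to 10 counts per library.

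TLE3 (ENSG00000140332.15, chr15:70047790-70098176, minus strand), a Groucho-family corepressor that binds TCF/LEF factors, gave 77.2, 77.8 and 73.6 CPM in siRNA-NC against 72.0, 68.4 and 65.3 CPM in si-AC010789.1. Every treated library was below every control library, by a narrow margin. The log2 fold change was −0.15 (SE 0.06), or 0.900-fold, with an adjusted p of 0.283 by edgeR's quasi-likelihood test and an unadjusted p of 0.0464, and it lay between −0.19 and −0.12 when each library was left out. The size of this change was close to the median absolute log2 fold change of all genes, 0.14.

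The 20 listed transcripts of TLE3 did not share this pattern. TLE3-211 had 131, 105 and 218 counts in siRNA-NC against 145, 178 and 138 in si-AC010789.1, and TLE3-222 had 126, 171 and 33 and then 86, 53 and 51. TLE3-203 had the lowest unadjusted p of the 14 tested (84, 114 and 30 counts against 32, 30 and 30; adjusted p = 0.888 by edgeR's quasi-likelihood test). TLE3-201 was at 0, 113 and 0 counts and then 61, 196 and 106, and TLE3-226 at 0, 22 and 134 and then 0 in all 3 treated libraries. Of the 14 tested, the groups overlapped for every one.

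Per length, the order of the members over all 6 libraries was CTNNB1 (mean 119 TPM), BCL9L (57.7), TLE3 (47.7), PYGO2 (38.9), BCL9 (26.3), TCF7L2 (21.2), LEF1 (9.02), CTNNBIP1 (7.08), TCF7 (2.61) and TCF7L1 (0.290). Neighbours whose library ranges overlapped were BCL9L and TLE3, BCL9 and TCF7L2, and LEF1 and CTNNBIP1. CTNNB1 lay above 89.4% of the genes tested, and TCF7 above 9.93%.

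Of the 86 listed transcripts, 40 could be tested, 17 higher and 23 lower in si-AC010789.1. The median of their log2 fold changes was −0.06, beside 0.00 over all 44319 transcripts tested. By edgeR's quasi-likelihood test, 0 passed an adjusted p of 0.05, against 0.0135% of all transcripts tested. An unadjusted p under 0.05 was reached by 3, LEF1-205, TCF7-204 and CTNNB1-203, where 5.73% of all transcripts lay. The same 3 met the study's criteria, against 3.50% of all. Groups did not overlap for 5, against 14.0% of all transcripts: these 3, CTNNB1-206 and TCF7L2-222. TCF7L2-222 had 20, 0 and 25 counts and then 25, 25 and 28.

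The share of a gene's counts held by its most abundant transcript was compared for the 9 members with 2 or more listed transcripts. It was apart between groups for 1 of them, CTNNB1, where 10.8% of 11587 genes were apart. When the transcript was chosen in siRNA-NC alone, CTNNB1-202 was picked for CTNNB1 and 0 members were apart. Among the 9, the CPM of the main transcripts of BCL9 and PYGO2 varied by at most 1.24 times inside each group, whereas TCF7-204 varied by 10.2 times inside si-AC010789.1.

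Other genes of the nuclear pathway were summarised by hand-written lists. Of 23 other coactivators and chromatin partners of β-catenin, 22 were tested, 11 higher and 11 lower, with a median log2 fold change of −0.02, and 0 were called by edgeR's quasi-likelihood test at an adjusted p of 0.05. At an unadjusted p under 0.05 there were 5 of 22, where 17.2% of all genes lay, and DESeq2 called 0. The lowest log2 fold changes were those of CCNC and MED12 of the Mediator kinase module (−0.27 and −0.17) and RTF1 of the PAF1 complex (−0.20). The highest were those of the second Pygopus gene PYGO1 (0.34), the arginine methyltransferase CARM1 (0.31) and the acetyltransferase KAT5 (0.27).

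Of 28 other corepressors and inhibitors of TCF/LEF and β-catenin, 27 were tested, 16 higher and 11 lower, with a median log2 fold change of 0.02. By edgeR's quasi-likelihood test 0 were called and 8 of 27 had an unadjusted p under 0.05, beside 0.982% and 17.2% of all genes. DESeq2 called 2, TLE1 and HIPK2, and 5.42% of all genes to which it gave an adjusted p. TLE1, a second Groucho corepressor, gave 31.2, 29.9 and 32.3 CPM in siRNA-NC against 23.9, 21.7 and 21.9 CPM in si-AC010789.1. Its log2 fold change of −0.47 had an adjusted p of 0.0639 by edgeR's quasi-likelihood test and 0.00747 by DESeq2. HIPK2, a nuclear kinase that phosphorylates TCF/LEF factors, gave 80.5, 81.2 and 81.2 CPM and then 66.6, 56.2 and 58.5 CPM. Its log2 fold change was −0.42, with adjusted p-values of 0.0696 by edgeR's quasi-likelihood test and 0.00256 by DESeq2. In both genes every treated library lay below every control library. The log2 fold change of SOX17, an antagonist of β-catenin, was −0.59, and the highest were those of HIC1 (0.72), the short Groucho protein AES (0.36) and the scaffold AXIN1 (0.25), none past the threshold.

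Of 41 Wnt/β-catenin target genes, 31 were tested, with LEF1 and TCF7 among them, 13 higher and 18 lower, with a median log2 fold change of −0.04. The 1 gene called of 31, beside 0.982% of all genes, was CCND1, which encodes cyclin D1 and was higher in si-AC010789.1. It gave 176, 190 and 203 CPM in siRNA-NC against 242, 262 and 254 CPM in si-AC010789.1, with a log2 fold change of 0.41 (SE 0.06, adjusted p = 0.0473 by edgeR's quasi-likelihood test). The call was lost when any 1 library was left out (adjusted p from 0.0771 to 0.157 by the same test). In those fits its log2 fold change stayed between 0.37 and 0.46, while calls over all genes fell from 135 to between 12 and 37. With all libraries, DESeq2 gave CCND1 an adjusted p of 9.91e-05, and it called 5.42% of all genes to which it gave an adjusted p. The next highest log2 fold changes were those of CAV1 (0.26) and BIRC5 (0.21), neither past the threshold. For cyclin D1 the study reported the opposite direction after knockdown, lower mRNA and, in stable lines, lower protein. It also reported lower mRNA of TCF1, JUN, CD44 and C-myc. Here JUN and CD44 had log2 fold changes of 0.02 and −0.06, neither past the threshold, and TCF7 and MYC are given below. The cause of the difference was not tested.

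The lowest log2 fold changes in that list were those of SOX4 (−0.88), TCF7 (−0.79) and MYC (−0.63), none of which passed. SOX4 gave 124, 123 and 134 CPM in siRNA-NC against 46.9, 48.4 and 112 CPM in si-AC010789.1. Over all libraries, edgeR's quasi-likelihood test gave SOX4 an adjusted p of 0.254. When any 1 library was left out, that value lay between 0.0221 and 0.455. The lowest came from leaving out si-AC010789.1 replicate 3. That fit removes the treated library nearest to the controls, so no call is drawn from it. MYC gave 169, 120 and 10.4 CPM in siRNA-NC against 12.7, 14.3 and 166 CPM in si-AC010789.1. Both groups of MYC held high and low libraries, and the third of each went against the other 2.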

How the data were processed

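Each value deposited by the authors is a read count of 1 Ensembl transcript in 1 library, not normalized, from paired-end TruSeq libraries. The submitters' processing notes name CASAVA 1.8, TopHat2 2.0.6 and the builds GRCh38 and mm10, with no role given. The counting program, the use of strand and the division of reads shared by transcripts are not given in the sources used here. All transcripts listed have at least 3 counts over the 6 libraries, a filter that leaves rarer transcripts out of the gene sums. GENCODE v29 (GRCh38) matched 99.9% of each library's counts.

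Counts were summed per gene and tested with edgeR 4.0.16 in R 4.3.3 (TMM scaling, filterByExpr at its minimum count of 10 and total of 15, quasi-likelihood test, Benjamini-Hochberg adjustment over 13750 genes or 44319 transcripts). The study named Cuffdiff, which was not run. DESeq2 1.42.0, RLE factors, other filters, protein_coding transcripts alone, a replicate block and leaving out each library were the alternatives. TPM used each transcript's annotated length. Scripts were tested on simulated data.

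Members and lists were chosen with earlier results of these data known. Named were all members, from each pathway list any gene called and the 3 highest and 3 lowest log2 fold changes, and for each member the 2 transcripts with most counts, any called and the 1 with the lowest p-value. Other transcripts named were chosen after their values were seen, and so were the sums without LEF1-205 and over TCF7 transcript types.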

Additional observations from a re-analysis of the deposited data

How the results depend on the processing

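Of 108 alternative values of the member fold changes, 105 kept their direction, 102 of them with an adjusted p that stayed above the threshold and 3 with none (TCF7, LEF1 and CTNNBIP1 under DESeq2). With 1 library left out, the log2 fold change of BCL9L ran from −0.25 to 0.15 (0.15 without si-AC010789.1 replicate 3, 0.055 without siRNA-NC replicate 3) and that of CTNNBIP1 from −0.028 (without si-AC010789.1 replicate 2) to 0.20. Members called at an adjusted p of 0.05 stayed at 0 in every alternative, and member transcripts at 0 except for 1 with DESeq2. Genes called, 135 of all tested, became 528 with DESeq2, 69 without a filter on low counts and 56 with protein_coding transcripts alone, and 12 to 37 when 1 library was left out. Transcripts called, 6 of all tested, became 675 with DESeq2, 0 without a filter and 0 to 6 when 1 library was left out. The corepressor list had 2 calls with DESeq2. The target list had 0 without a filter, 0 with protein_coding transcripts alone and 0 to 1 when 1 library was left out. Members with separate groups in the share of the main transcript, 1 in all, became 2 with protein_coding transcripts alone, 0 with the transcript chosen in siRNA-NC alone (added after the data were seen) and 1 to 4 when 1 library was left out, with 4 without siRNA-NC replicate 3, 3 without either siRNA-NC replicate 1 or replicate 3 of si-AC010789.1, and 2 without si-AC010789.1 replicate 2. Groups of 3 and 2 libraries separate more easily than groups of 3 and 3. The share of all genes that were apart is not given for these alternatives, so their counts cannot be compared with the 1 in all. The cause was not tested for any of these changes. Whether the replicate numbers pair the libraries is not given. Same-numbered libraries had correlations of 0.0896, 0.00281 and 0.000333 in their deviations from the group means. Libraries with unlike numbers had −0.0771 to 0.0789, and these values do not settle the pairing. With the replicate number as a block, 0 genes and 0 transcripts were called, and 0 in the target list. With the longest transcript length instead of each transcript's own, PYGO2 stood above TLE3 in level per length. Depth limits TCF7, TCF7L1 and the LEF1 transcripts, which rest on few counts. Only the interval named a counting interval covers counting error alone. The intervals of the fitted fold changes rest on the SE of each fit.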
